A study of Rattus norvegicus with 18 samples.

Results

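This account compares retinas of rats that received photobiomodulation (PBM) before damaging light (PBMLD, 3 arrays) with retinas of rats exposed to the same light without pretreatment (LD, 3 arrays). The members were taken from the sample titles and make up 6 of the 18 arrays of the series. In PBMLD, adult Sprague Dawley rats of postnatal day 80 to 120 received red light from a light-emitting diode source for 3 min a day on 5 days and were then exposed to 1000 lux for 24 h. LD rats of the same strain and age had only the 24 h exposure, for which the sample descriptions give 1000 lux and the source names 100 lux, while the methods give 1000 lux for the light exposure. Rats of 2 further groups of 3 arrays ate saffron over 3 weeks (1 mg/kg each day), followed by the bright light (SafLD) or not (saffron). PBM rats (3 arrays) had the red light without the bright light, and control rats (3 arrays) had neither. Rats of every group lived in dim cyclic light of 5 lux. The methods describe feeding with a vegetable matrix for the controls and the same matrix as the vehicle for saffron. The methods give more animals in each group than there are arrays, of both sexes, and which of them lie behind which array was not given in the sources used here. Levels are log2 RMA values of whole retina RNA on Affymetrix rat Gene 1.0 ST arrays, so a change of 1 is a doubling of the normalised intensity.

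Bright light damages the photoreceptors of albino rats, and the surviving retina answers with a stress programme: Müller cells become reactive, chemokines call in phagocytes, and interferon and cytokine pathways are switched on through the STAT and NF-kB families of transcription factors. PBM is the irradiation of tissue with red or near infrared light, which is absorbed in part by cytochrome c oxidase, the last enzyme of the mitochondrial respiratory chain. It has been studied as a pretreatment that protects photoreceptors from such light.

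With PBM before the light, a small number of transcripts passed the test as lower and fewer as higher than with light alone. Of 29214 probe sets, 63 (0.216%) passed an adjusted p of 0.05 with more than a 2-fold difference. Of these, 62 (0.212%) were lower and 1 (0.00342%) was higher in PBMLD. Without the fold requirement 83 passed, 73 lower (0.25%) and 10 higher (0.0342%), and 3360 (11.5%) had an unadjusted p below 0.05. Most of the 83 carry no gene name here: 64 had no symbol, and 19 probe sets stood for 15 genes. Of the 15 genes, 11 were lower and 4 were higher, which is 15 (0.098%) and 4 (0.0261%) of the 15310 probe sets with 1 symbol. When p-values were adjusted over those 15310 alone, 0 passed in limma (1624 had an unadjusted p below 0.05, which is 10.6%, 716 lower and 908 higher). In the methods' t-test, adjusted over all 29214 probe sets, 0 passed. When only the 6 compared arrays were fitted none of the 35 probe sets that passed had a symbol. The balance of lower over higher holds only for the calls: without overlap between the arrays, 548 probe sets with 1 symbol were lower (3.58%) and 1243 higher (8.12%). The named genes below therefore stand at the edge of the threshold. The arrays behind them were uneven: 193 probe sets passed without LD 1 (99 with a symbol) and 194 without PBMLD 2 (96 with a symbol), but 52 without PBMLD 1 (5 with a symbol), 53 without PBMLD 3 (7 with a symbol) and 50 without LD 3 (1 with a symbol).

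Among the 11 lower genes were an inducible neuronal factor, cytoskeletal and surface proteins of reactive cells, and a subunit of the phagocyte oxidase. Npas4, an activity-dependent transcription factor of neurons, had the largest difference. Its levels were 6.88, 7.21 and 6.75 in PBMLD, against 7.51, 8.86 and 9.41 in LD. All PBMLD arrays lay below the lowest LD array, and the difference was -1.65 (95% interval -2.36 to -0.94, adjusted p = 0.0496). Of 18 fits that each left out 1 array, Npas4 passed only in those without LD 1 or without PBMLD 2 (adjusted p from 0.000286 to 0.175). PBM without bright light left it at 7.15, 7.22 and 6.43, against 6.65, 6.68 and 6.35 in control.

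Tubb6, a beta-tubulin, had 7.67, 7.80 and 7.90 in PBMLD and 9.07, 8.39 and 9.41 in LD, a difference of -1.16 (adjusted p = 0.0415). Cd44, the hyaluronan receptor carried by reactive Müller cells, had 8.05, 8.25 and 8.49 in PBMLD and 8.74, 9.13 and 9.85 in LD, a difference of -0.98 (adjusted p = 0.0494). For both genes the LD arrays were high and the PBMLD arrays lay near the control values, which were 7.68, 7.33 and 7.78 for Tubb6 and 7.83, 7.97 and 8.10 for Cd44. Dusp6, a phosphatase that switches off ERK, differed by -0.91 (adjusted p = 0.032). Plat, tissue plasminogen activator, differed by -0.84 (adjusted p = 0.0415), with 8.43, 8.51 and 8.80 in PBMLD, against 8.98, 9.61 and 9.67 in LD. Gpr15lg, a secreted ligand of the receptor GPR15, differed by -0.70 (adjusted p = 0.0278). In the fits with 1 array left out, Cd44 passed only without LD 1, Plat in 4, Tubb6 in 7, Dusp6 in 13 and Gpr15lg in 14 of 18. Dusp6 and Gpr15lg did not pass without LD 2, LD 3, PBMLD 1 or PBMLD 3, nor did Dusp6 without PBM 3.

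Cybb, the catalytic subunit of the phagocyte NADPH oxidase, had the smallest adjusted p among the named genes that were lower. It measured 5.01, 5.38 and 5.19 in PBMLD and 5.85, 6.15 and 6.25 in LD, and 5.59, 5.32 and 5.31 in control. The difference was -0.89 (95% interval -1.22 to -0.57, adjusted p = 0.0136), and Cybb passed in 15 of the 18 fits with 1 array left out, the exceptions being LD 3, PBMLD 1 and PBMLD 3 (highest adjusted p = 0.0796). Its promoter is shown because it held matches to 2 of the 3 motifs searched. The window runs from 250 bases before to 50 after the start site in RefSeq (GRCr8), chrX:16065016-16065315 (minus strand). Capitals mark first a match to TGANTCA, the pattern searched here for AP-1, in which N is any base (A in this match). Then follows a match to the core of the interferon-stimulated response element (ISRE), which is GAAA and GAAA with 2 bases of any kind between.
Cybb: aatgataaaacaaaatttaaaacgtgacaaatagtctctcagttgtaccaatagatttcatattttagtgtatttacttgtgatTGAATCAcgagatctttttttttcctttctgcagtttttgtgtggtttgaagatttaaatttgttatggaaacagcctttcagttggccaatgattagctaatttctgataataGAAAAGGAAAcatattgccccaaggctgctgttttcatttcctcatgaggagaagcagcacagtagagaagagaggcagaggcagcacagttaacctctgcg
On both strands, 7.33% of the 27457 promoters of this length held TGANTCA and 3.77% held the ISRE core. Of the 11 lower genes, 9 had a promoter in the table, of which 1 held TGANTCA, 2 held the ISRE core (Cybb and Gpr15lg) and 0 held TTCNNNGAA, the motif bound by STAT dimers. A match is only a match of letters.

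Of the remaining lower genes, Stom and Imp3 had control levels close to those of LD. Stom, the membrane protein stomatin, had 8.06, 7.44 and 8.12 in PBMLD, 8.56, 8.81 and 8.75 in LD and 8.59, 8.56 and 8.46 in control. PBM alone gave 8.15, 7.92 and 7.90, so that both groups with red light were low and both without were high. Imp3, a protein of the small ribosomal subunit processome, showed the same order, with 9.05, 9.61 and 9.08 in PBMLD, 10.01, 10.03 and 9.82 in LD, 9.24, 9.24 and 9.32 in PBM and 9.80, 9.94 and 10.11 in control. Ppp1r18, which targets protein phosphatase 1 to actin, was lowest in PBMLD, at 6.52, 6.37 and 6.52, against 7.01, 7.25 and 7.33 in LD. For Rpl39, a protein of the large ribosomal subunit, 5 of 7 probe sets passed with 2 distinct rows of values (-1.31 and -1.22). Rpl39 has many near-identical copies, so which copy was measured is uncertain, and the rows passed in 13 and 4 of the 18 fits with 1 array left out. Stom passed in 16 of the 18 fits with 1 array left out (not without LD 2 or LD 3), Ppp1r18 in 14 (not without LD 2, LD 3, PBMLD 1 or PBMLD 3) and Imp3 in 3.

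The 4 higher genes were Slc22a3, a transporter of organic cations and monoamines, Krtap5-8, a keratin-associated protein, Cd248, endosialin of pericytes and fibroblasts, and Tmem218, a protein of the ciliary transition zone. Slc22a3 had 4.68, 4.73 and 4.77 in PBMLD and 4.0, 4.24 and 4.15 in LD, a difference of 0.60 (adjusted p = 0.0134), and passed in 17 of the 18 fits with 1 array left out (adjusted p = 0.0566 without PBMLD 3). PBM alone also stood above control, at 4.76, 4.67 and 4.71, against 4.43, 4.45 and 4.28, a difference that did not pass (adjusted p = 0.28). Krtap5-8 had 8.16, 8.21 and 7.92 in PBMLD and 7.38, 7.35 and 7.43 in LD (adjusted p = 0.0255), and 1 of its 5 probe sets passed. Tmem218 differed by 0.52 (adjusted p = 0.0415) and Cd248 by 0.75 (adjusted p = 0.0393), and these passed in 3 and 5 of the 18 fits with 1 array left out. Krtap5-8 passed in 15, the exceptions being LD 2, LD 3 and PBMLD 1.

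**Figure D1:**
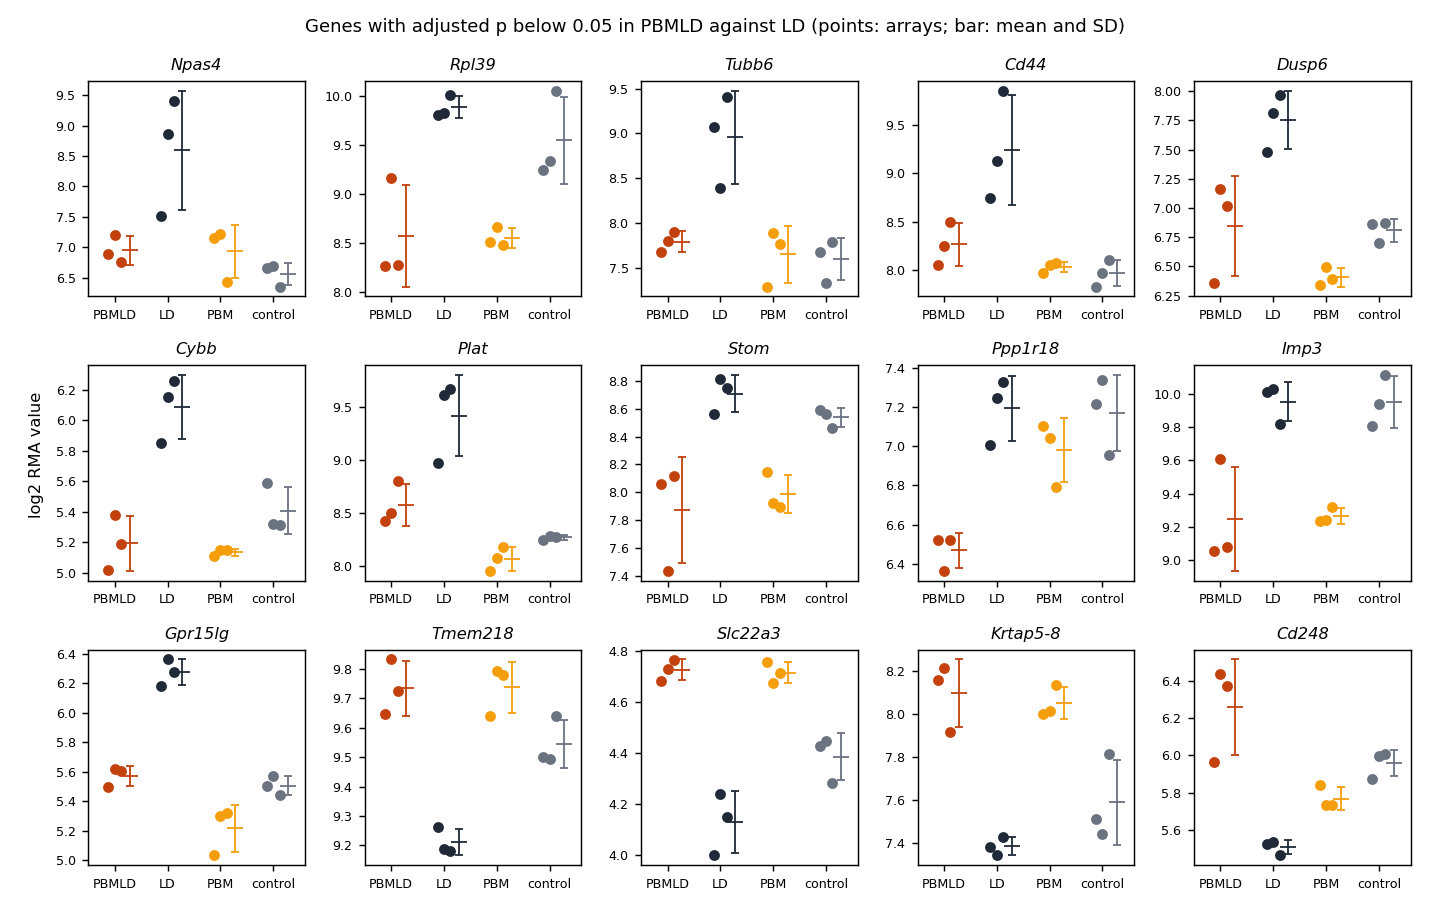
Log2 RMA values (vertical axes, scaled per gene) of the 15 genes with adjusted p below 0.05, in PBMLD, LD, PBM and control arrays from left to right. Points are arrays, the bar beside them is the mean with SD (n = 3). The 11 lower genes come first and the 4 higher genes last, and PBMLD and LD do not overlap in any of them.

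Larger differences than these were measured in genes of the light response, but the arrays within each group spread too widely for them to pass. The chemokine Ccl2, which recruits monocytes, had 5.34, 10.56 and 8.10 in PBMLD, against 9.13, 10.94 and 11.38 in LD. The difference was -2.49 (95% interval -4.26 to -0.71, adjusted p = 0.277), with PBMLD 2 above LD 1 and PBMLD 1 within the control range of 5.00 to 5.60. Serpinb2, an inhibitor of plasminogen activators, differed by -2.58 (adjusted p = 0.112), with PBMLD at 2.45, 3.36 and 2.92 and LD at 3.15, 5.95 and 7.38. Ccl3, another chemokine, differed by -2.18 (adjusted p = 0.155), and the stromelysin Mmp3 by -2.15 (adjusted p = 0.227). None of the 25 chemokines and receptors measured had PBMLD and LD arrays that did not overlap. Of probe sets with 1 symbol, 3.58% were lower and 8.12% higher without overlap. An unadjusted limma p below 0.05 was found for 9 of the 25 (36.0%, all lower), against 10.6% of probe sets with 1 symbol. The median difference of the list was -0.34. It was -0.54 without LD 1 (3 members passed) and -0.42 without PBMLD 2 (4 passed), but -0.10 without LD 3 and -0.11 without PBMLD 1 (0 passed).

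The interferon list was lower in sign throughout. All 32 members measured had a negative difference, with a median of -0.69, whereas the median over all probe sets was 0.04 and 42.1% of the probe sets with 1 symbol were negative. None passed in limma, and 18 of the 32 had an unadjusted p below 0.05, against 10.6% of probe sets with 1 symbol. In 3 of the 32 the PBMLD arrays lay below the LD arrays without overlap, against 3.58% of probe sets with 1 symbol. These were Ifi44l (-1.52, adjusted p = 0.0845), Irf1 (-1.04, adjusted p = 0.0907) and Irf9 (-1.02, adjusted p = 0.0767), of which the last 2 are interferon regulatory factors. Irf9 had 8.06, 8.54 and 8.71 in PBMLD, 8.88, 9.72 and 9.76 in LD and 7.12, 7.35 and 6.91 in control. It thus stood above control in every PBMLD array and below every LD array. Gbp2, a guanylate-binding protein, had the largest difference of the list, -2.39 (adjusted p = 0.104), with 5.39, 7.89 and 7.51 in PBMLD, against 7.66, 9.90 and 10.39 in LD. The mean over the list was 5.35, 6.25 and 6.20 in PBMLD, 5.86, 7.19 and 7.20 in LD and 5.43 to 5.53 in control. PBMLD 1 lay below every control array and LD 1 below PBMLD 2 and PBMLD 3. Without LD 1 the median of the list was -1.20 and 15 members passed, without PBMLD 2 it was -0.81 and 2 passed, and without LD 2 it was -0.39 and 0 passed.

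In the NF-kB list 12 of 13 members were negative, with a median of -0.55, and 0 passed in limma. An unadjusted limma p below 0.05 was found for 9 (69.2%, all lower), against 10.6% of probe sets with 1 symbol. Without LD 1 the median was -0.75 and 5 passed. The PBMLD and LD arrays did not overlap for Icam1, the adhesion molecule that holds leukocytes, Nfkbie and Nfkbia, which are inhibitors and targets of NF-kB. These 3 (23.1% of the list) were lower, against 3.58% of probe sets with 1 symbol that were lower without overlap. Icam1 had 6.62, 7.80 and 7.33 in PBMLD, 8.02, 9.06 and 8.79 in LD and 6.01, 6.32 and 6.37 in control, a difference of -1.37 (adjusted p = 0.058). Of the gp130 cytokine and STAT3 genes, Osmr, the oncostatin M receptor, differed by -1.55 (adjusted p = 0.106), Socs3, the feedback inhibitor of this pathway, by -1.27 (adjusted p = 0.156) and Stat3 by -0.66 (adjusted p = 0.148). The list of 22 had a median of -0.12, which was -0.21 without LD 1 (2 members passed) and -0.26 without PBMLD 2 (3 passed), and -0.07 without LD 3 and -0.04 without PBMLD 1 (0 passed). Lif, the cytokine released by Müller cells in damaged retina, had 5.32, 8.78 and 6.59 in PBMLD and 6.90, 8.43 and 7.84 in LD, which overlap.

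The promoters of 3 of these genes are printed because each held 1 TTCNNNGAA match, in capitals, upstream of the start site. They are from RefSeq (GRCr8), for Irf1 at chr10:38417685-38417984 (plus strand), for Irf9 at chr15:33065586-33065885 (plus strand) and for Icam1 at chr8:27829595-27829894 (plus strand).
Irf1: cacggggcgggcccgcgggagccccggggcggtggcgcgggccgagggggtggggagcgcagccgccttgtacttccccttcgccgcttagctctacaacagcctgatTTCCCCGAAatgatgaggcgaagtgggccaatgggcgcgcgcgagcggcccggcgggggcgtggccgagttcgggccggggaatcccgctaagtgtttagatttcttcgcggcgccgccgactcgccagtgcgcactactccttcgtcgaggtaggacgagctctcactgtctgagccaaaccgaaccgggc
Irf9: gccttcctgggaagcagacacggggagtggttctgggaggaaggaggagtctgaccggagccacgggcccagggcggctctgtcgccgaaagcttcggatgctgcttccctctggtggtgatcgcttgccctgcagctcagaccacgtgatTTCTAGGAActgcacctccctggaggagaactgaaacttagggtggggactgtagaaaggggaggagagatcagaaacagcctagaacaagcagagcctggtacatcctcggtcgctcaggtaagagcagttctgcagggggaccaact
Icam1: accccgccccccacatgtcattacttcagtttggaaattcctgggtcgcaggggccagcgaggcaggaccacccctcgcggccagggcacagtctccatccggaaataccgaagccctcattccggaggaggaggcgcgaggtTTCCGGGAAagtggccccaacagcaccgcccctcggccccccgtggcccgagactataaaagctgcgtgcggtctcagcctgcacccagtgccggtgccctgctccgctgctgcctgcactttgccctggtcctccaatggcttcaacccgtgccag
The motif was in 8.68% of all promoters of this length and in 10 of the 24 interferon list promoters in the table (41.7%). The ISRE core was in 15 of those 24 (62.5%). In the NF-kB list 1 of 10 promoters held TTCNNNGAA.

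**Figure D2:**
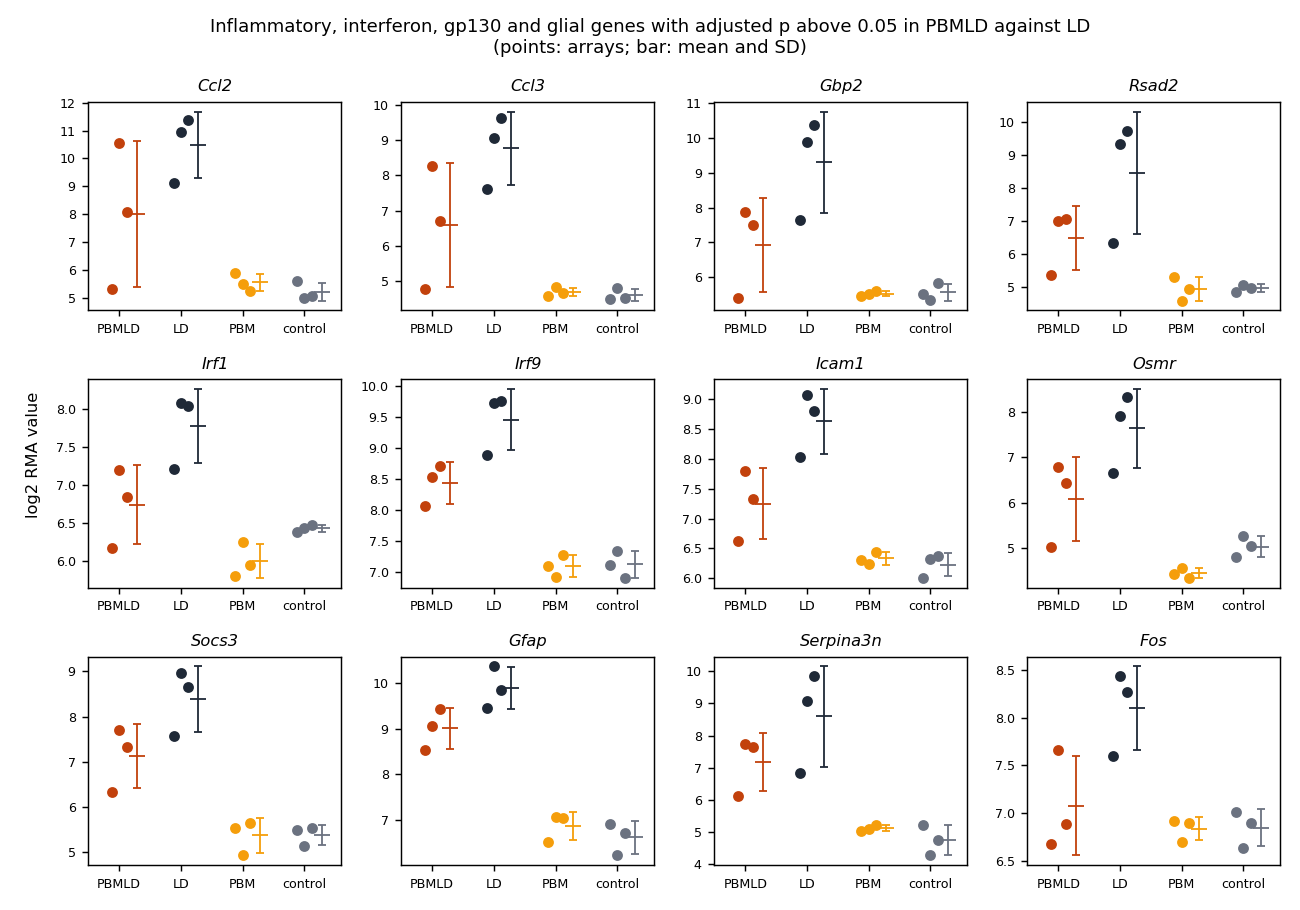
Log2 RMA values (vertical axes, scaled per gene) of 12 inflammatory, interferon, gp130 and glial genes in PBMLD, LD, PBM and control arrays, chosen after their values were seen. Points are arrays and bars are mean and SD (n = 3). All 12 have an adjusted p above 0.05, and PBMLD 1 is the lowest PBMLD array in each.

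Genes of reactive glia had the lowest median of the lists, -0.84 over 24 members, of which 21 were negative. Cd44 was the only member that passed. An unadjusted limma p below 0.05 was found for 17 (70.8%, all lower), against 10.6% of probe sets with 1 symbol. Gfap, the intermediate filament by which Müller cell reactivity is usually followed, had 8.54, 9.05 and 9.43 in PBMLD, against 9.46, 10.37 and 9.86 in LD and 6.91, 6.23 and 6.73 in control. The groups did not overlap, and the difference was -0.89 (adjusted p = 0.213). Gfap was thus well above control in both light groups. Lcn2, an acute phase siderophore-binding protein, differed by -1.78 (adjusted p = 0.314), with PBMLD at 7.49, 11.27 and 9.76 and LD at 10.05, 11.82 and 11.99. The median was -0.57 without PBMLD 1 and -0.55 without LD 3, and no member passed in either fit. It was -0.97 without LD 1 and -0.90 without PBMLD 2, and 5 members passed in each of these. By contrast, 18 genes of Müller cell water, potassium and glutamate handling had a median of 0.07, with Kcnj10 at 0.25 (adjusted p = 0.63) and Aqp4 at 0.05 (adjusted p = 0.953).

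Immediate early genes had a median of -0.39 over 26 members, 20 of them negative, and Npas4 was the one that passed. Without LD 2 the median was -0.23 and 0 passed, without LD 1 3 passed and without PBMLD 2 5 passed. Fos had 6.68, 7.66 and 6.88 in PBMLD and 7.60, 8.44 and 8.27 in LD (adjusted p = 0.0882), so PBMLD 2 overlapped LD 1. Arc and Egr2, also activity-dependent, differed by 0.08 and 0.01, and Nr4a3 was higher without overlap, by 0.40 (adjusted p = 0.34). Phagocyte markers had a median of -0.19 over 21 members, which was -0.26 without LD 1 (3 passed) but -0.06 without LD 3 and -0.05 without PBMLD 1 (0 passed). Of the 21, 12 were negative and 9 positive, and 5 (23.8%) were lower without overlap, against 3.58% of probe sets with 1 symbol. An unadjusted limma p below 0.05 was found for 7 (33.3%, all lower), against 10.6% of probe sets with 1 symbol. Lyz2, the lysozyme of macrophages, had 5.41, 6.26 and 6.05 in PBMLD, against 6.55, 7.39 and 7.83 in LD (difference -1.35, adjusted p = 0.0684), while the resident microglia markers P2ry12 and Tmem119 differed by 0.17 and 0.22 and did not pass. In bulk tissue, fewer cells of a type and less RNA per cell cannot be told apart.

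Genes of the mitochondrial respiratory chain, where PBM is thought to act, showed no difference that passed in limma. In each of the 2 respiratory chain lists 2 genes (6.06%) had an unadjusted p below 0.05, against 10.6% of probe sets with 1 symbol. The 33 cytochrome c oxidase and ATP synthase genes had a median of 0.05 and a smallest adjusted p of 0.226, and the 33 NADH dehydrogenase genes a median of -0.02 and a smallest adjusted p of 0.357. The 34 antioxidant and metallothionein genes had a median of -0.10, with Hmox1, the inducible heme oxygenase, at -1.36 (adjusted p = 0.169) and Mt2A at -1.38 (adjusted p = 0.186). Rod phototransduction genes, which mark the main cell type of the rat retina, averaged 12.1, 11.8 and 12.0 in PBMLD and 12.1, 12.0 and 11.6 in LD, with a median difference of 0.08 over 17 members. Among photoreceptor genes, Reep6, an endoplasmic reticulum protein of rods, was higher without overlap, at 11.25, 10.95 and 11.24 in PBMLD, against 10.85, 10.74 and 9.63 in LD and 12.16, 12.07 and 11.95 in control. That difference of 0.74 did not pass (adjusted p = 0.248), nor did 0.45 for Cldn5, the tight junction protein of endothelium (adjusted p = 0.332). Of the 13 endothelial and pericyte genes 3 were higher without overlap, against 8.12% of probe sets with 1 symbol. No other list had a member that passed except the matrix protease list (Plat) and the tubulin and actin list (Tubb6), with medians of -0.18 and -0.20. With 1 array left out, 31 of the 33 list medians moved by over 1.5 times in at least 1 fit. The medians of inflammatory cytokines, complement, apoptosis, aminoacyl-tRNA synthetase, heat shock, ATF4 and clock genes lay between -0.21 and -0.02, and those of cone, bipolar, amacrine, blood and neutrophil genes between 0.04 and 0.17.

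Outside these lists, large differences without overlap were found in genes of varied function, and none of the following passed. Pnkd, the gene of a paroxysmal dyskinesia, differed by 1.00 (adjusted p = 0.0957), with 7.89, 8.86 and 7.92 in PBMLD and 7.46, 7.42 and 6.78 in LD. The olfactory receptor genes Or2h1 and Or2ak5 differed by 0.87 (adjusted p = 0.107) and 0.86 (adjusted p = 0.137). Scn4b, a sodium channel beta subunit, differed by 0.83 (adjusted p = 0.13), and Chst3, which sulfates chondroitin, by 0.79 (adjusted p = 0.135), with 7.34, 7.44 and 7.37 in PBMLD, against 6.29, 7.12 and 6.34 in LD and 5.33, 5.07 and 5.27 in control. Among the decreases, RT1-Da, a chain of MHC class II, differed by -1.59 (adjusted p = 0.0684), with 4.71, 5.54 and 4.70 in PBMLD and 5.55, 6.55 and 7.60 in LD. The annexin Anxa8 differed by -1.47 (adjusted p = 0.0957) and the calcium-binding protein S100a4 by -1.48 (adjusted p = 0.187). S100a4 was at 8.99 and 9.07 in LD 1 and LD 3 and at 7.10 in LD 2, against 7.04, 7.0 and 6.68 in PBMLD. The mean of lens genes was 10.75, 8.45 and 10.70 in LD and 9.83, 8.79 and 8.90 in PBMLD. A link between S100a4 and lens genes was not tested. Ogn, a small leucine-rich proteoglycan of connective tissue, was at 5.62 in PBMLD 1 and at 9.50 and 9.33 in the other PBMLD arrays, against 9.62, 9.64 and 10.47 in LD, a difference of -1.76 (adjusted p = 0.328).

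**Figure D3:**
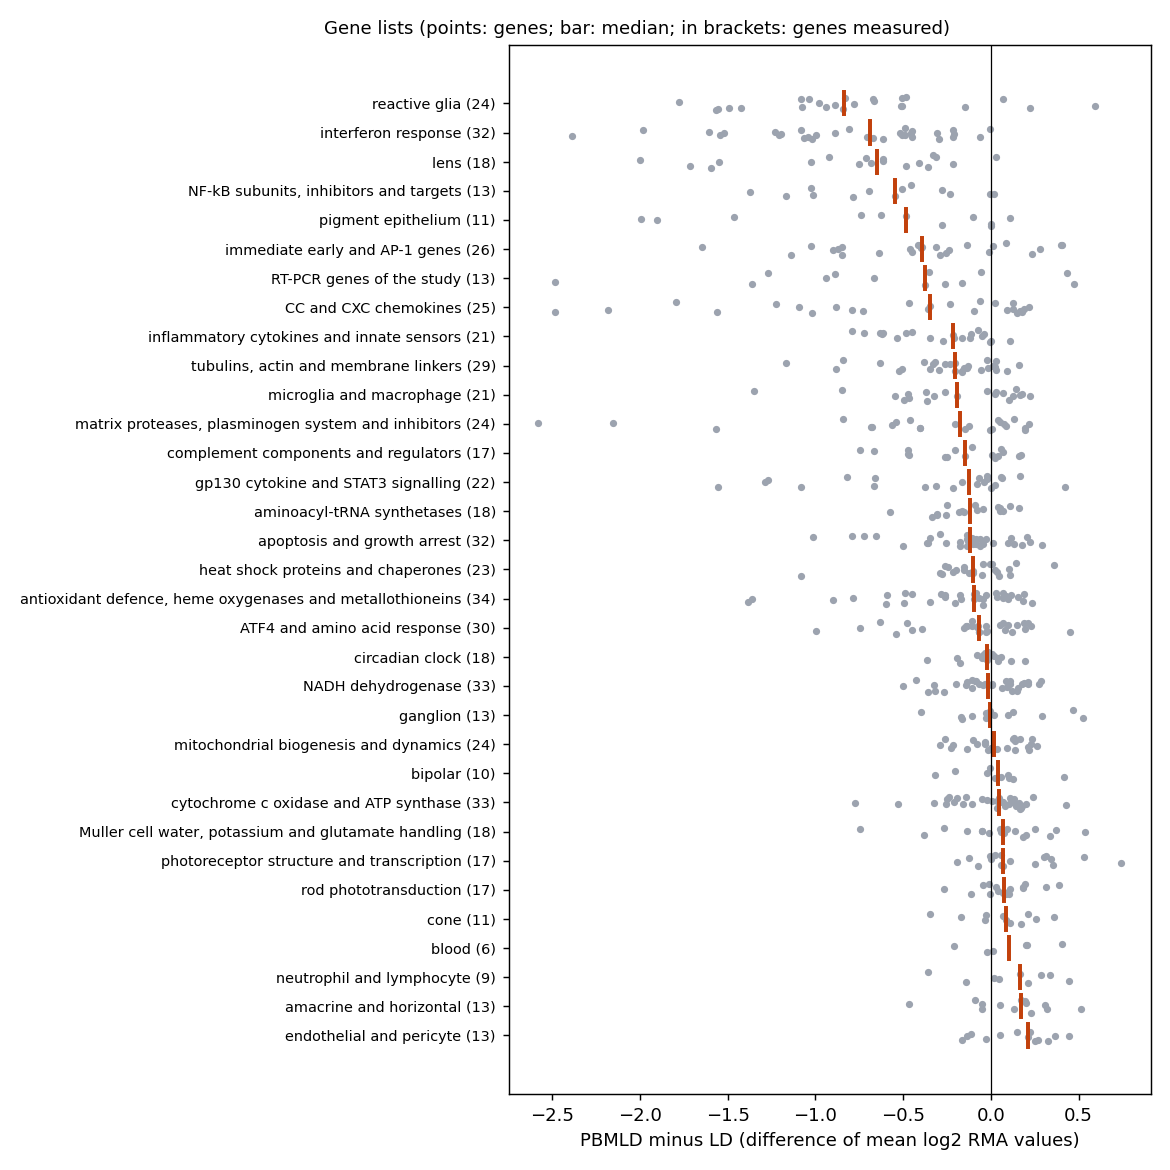
Difference between PBMLD and LD (mean log2 RMA values, horizontal axis) of each measured gene, by list. Points are genes, the bar is the list's median and the bracket gives the number measured. The reactive glia and interferon lists have the lowest medians, -0.84 and -0.69, and the respiratory chain and photoreceptor lists lie near 0.

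Tissue other than neural retina also differed between arrays. Lens genes had a mean of 9.83, 8.79 and 8.90 in PBMLD, 10.75, 8.45 and 10.70 in LD and 8.47 to 9.05 in control, with 17 of 18 members lower in PBMLD, a median of -0.65 and no member passing or without overlap. Pigment epithelium genes had a mean of 5.24, 6.46 and 6.08 in PBMLD, 6.60, 6.26 and 6.96 in LD and 5.78 to 6.51 in control, with a median of -0.48 over 11 members and 1 member, Tyrp1, without overlap. Tyrp1, a melanosome enzyme, was at 4.16 in PBMLD 1, against 7.30 and 7.17 in the other PBMLD arrays and 7.31 to 9.19 in LD. With the pigment epithelium mean as a covariate 41 probe sets passed at any fold, 3 of them with a symbol, and 1 of the 15 named genes (Stom) still passed. Under this covariate the interferon and reactive glia medians were -0.53 and -0.44, and those of chemokines, inflammatory cytokines and phagocyte markers were -0.09, -0.03 and -0.01. With the lens mean as a covariate 76 passed, 22 with a symbol, 8 of the 15 named genes still passed, and the interferon and reactive glia medians were -0.99 and -0.72. In LD 1, LD 2 and LD 3 the lens mean was 10.75, 8.45 and 10.70 and the interferon mean 5.86, 7.19 and 7.20. A link between these levels was not tested.

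**Figure D4:**
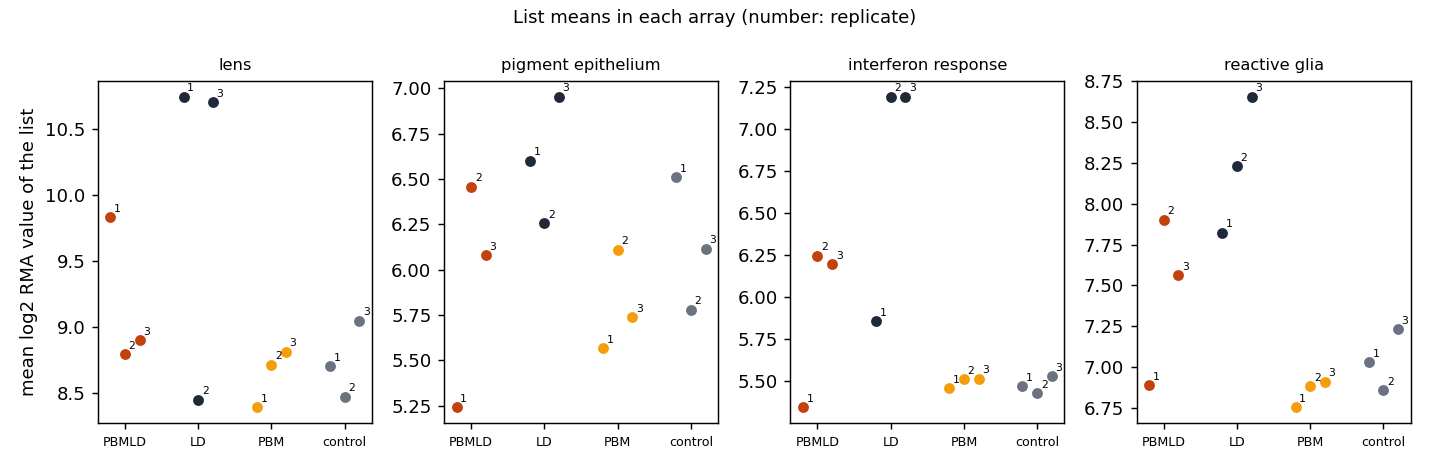
Mean log2 RMA value over the members of 4 lists (vertical axes, scaled per list) in each PBMLD, LD, PBM and control array, with the replicate number at each point. Lens genes are high in LD 1 and LD 3, pigment epithelium genes are lowest in PBMLD 1, and the interferon mean of LD 1 lies below those of PBMLD 2 and PBMLD 3.

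To follow the light response in a set not chosen on these arrays, the probe sets raised in SafLD (saffron, then light) against saffron alone were taken: 117 (0.4%) were raised more than 2-fold. In PBMLD and LD their medians above the control mean were 0.75, 1.05 and 0.97 in PBMLD and 1.07, 1.32 and 1.36 in LD. The PBMLD arrays lay below the LD arrays, by a median of -0.34 over the 117, of which 95 were negative, and 13 (11.1%) were lower without overlap, against 4.41% of all probe sets. Restricted to the 90 with 1 symbol, the arrays overlapped, at 0.86, 1.31 and 1.12 in PBMLD and 1.20, 1.68 and 1.49 in LD. Of the 117, 1 passed in PBMLD against LD. The same comparison lowered 124 probe sets (0.424%), of which 30 belong to the unnamed stretch described next. Against the control mean, the array medians of the 124 were -1.21, -1.12 and -1.10 in PBMLD and 0.03, -0.095 and 0.47 in LD. PBM arrays had -0.92, -1.24 and -0.90, so the list was low in PBM and not low as a whole in LD. PBMLD minus LD had a median of -1.15 over the 124, and 52 passed. Of the 124, 89 (71.8%) were lower without overlap, against 4.41% of all probe sets. The 25 of the 124 with 1 symbol had a median of -0.53, with 17 negative.

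Of the 63 called probe sets, 56 had no name, and 30 of these belonged to 1 numbered stretch of the array. From probe set 10722409 to 10722481, those 30 were called, with 20 distinct rows of values, 10 of the 30 being identical copies of a row. Their differences ran between -2.78 and -1.17. The stretch was defined as the longest run of unnamed probe sets called lower, with number gaps of at most 20. Those 30 were thus lower by choice, and only the uncalled ones among the 37 of that number range were not so chosen. These were lower in PBMLD too. The largest, 10722459, had 5.70, 6.05 and 6.44 in PBMLD, against 8.52, 8.50 and 9.52 in LD (adjusted p = 2.59e-05). Over the distinct rows the array medians were 7.83, 8.25 and 8.41 in PBMLD, 10.19, 10.09 and 10.91 in LD, 8.71, 8.17 and 8.51 in PBM and 10.12, 10.08 and 10.03 in control. Both groups with red light were low whether or not bright light followed. In PBM against control 27 of the 30 also passed (0.14% of all probe sets passed as lower there). That comparison takes its means from other arrays but shares the estimate of spread, as both come from 1 fit. The 27 include the 10 identical copies, so they are not 27 separate results. The medians were also low in SafLD, at 8.67, 7.72 and 8.08, and high in saffron alone, at 10.69, 10.68 and 10.43. In all, 33 of the 63 called probe sets, none of them with a symbol, also passed in PBM against control in the same direction. More of the 63, namely 52, were also called lower in SafLD against saffron, groups that had no red light. That comparison shares the estimate of spread too, and the 52 include the 30 of the stretch. The 1 probe set called higher, 10718602, is unnamed too, at 4.99, 5.03 and 4.79 in PBMLD, against 3.95, 3.91 and 3.74 in LD (adjusted p = 0.000505).

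**Figure D5:**
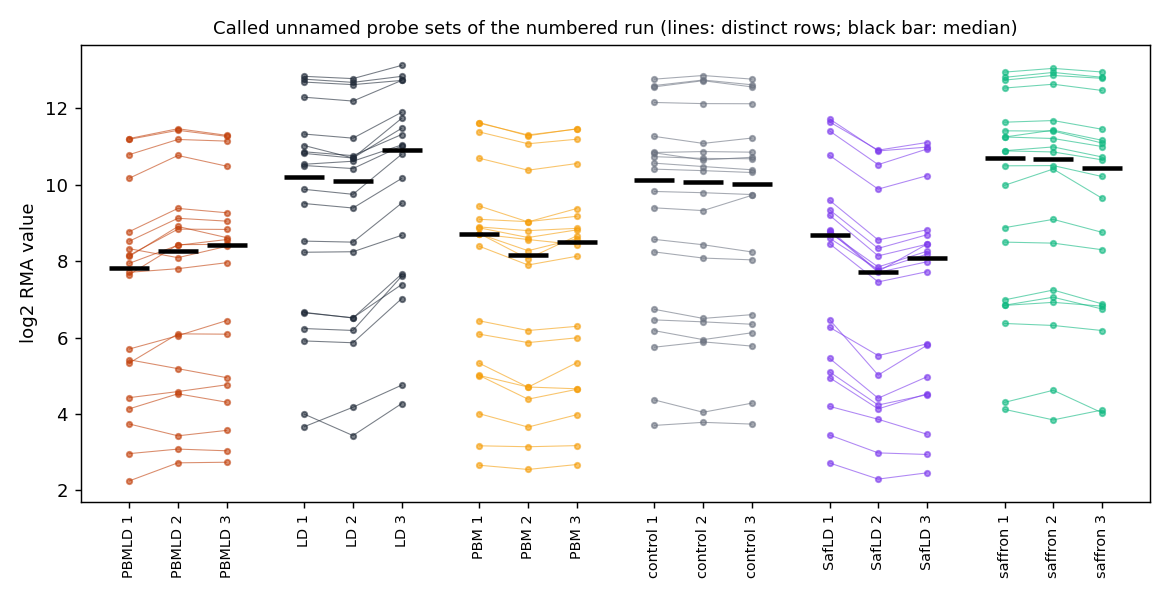
Log2 RMA values (vertical axis) of the 20 distinct rows among the called unnamed probe sets of the numbered stretch, in all 18 arrays (horizontal axis) by group. Thin lines join the arrays of a group for 1 row and black bars are array medians. PBMLD, PBM and SafLD arrays have medians of 7.72 to 8.71, and LD, control and saffron arrays 10.03 to 10.91.

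Whether red light acted differently with and without bright light was tested as the difference of the differences, PBMLD minus LD less PBM minus control. This called 2 probe sets (0.00685%), Ldb2 and 1 unnamed. None of the 15 named genes of PBMLD against LD was called by it (adjusted p = 0.999 for each). For Npas4 the difference of differences was -2.02 (95% interval -3.02 to -1.01) and for Imp3 -0.02 (95% interval -0.43 to 0.40).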

How the data were processed

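Whole retina RNA of 6 groups was hybridised to 18 Affymetrix arrays, 3 a group. The authors deposited log2 values normalised with RMA, made according to the submitters' processing notes with Expression Console (version 1.1.2800.19935), while the methods name further software. RMA sets all arrays to 1 distribution (array medians 6.12 to 6.20), so a shift of the whole transcriptome is not visible, and 3 arrays a group limit the precision (median standard error 0.16). The genome build was not given in the sources used here. Of 29214 probe sets, 15310 carried 1 symbol in the platform annotation, 323 several and 13581 none. The first are named here, and RefSeq names and promoters are of assembly GRCr8. PBMLD was compared with LD in limma 3.58.1 (R 4.3.3), with the 6 groups of 18 arrays in 1 linear model (12 residual degrees of freedom) and Benjamini-Hochberg adjustment over all probe sets. A call needed an adjusted p below 0.05 and more than a 2-fold difference. The model was tested on simulated data. In lists, the probe set with the highest mean represented its gene. Named genes are those with adjusted p below 0.05, the largest differences in each direction without overlap, and each list's largest, defining and RT-PCR members. Others, such as Ccl3, Irf1, Irf9 and Fos, were named after their values were seen. The members and lists were chosen with earlier results of these data known. The study describes the retinas of the treated groups as coming from different animals and does not say so of the controls. An exact permutation test of 3 against 3 cannot go below 0.1. The methods' t-test, normalisation, array weights, a replicate block, lens and pigment epithelium covariates, left-out arrays and single-symbol testing were alternatives.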

Additional observations from a re-analysis of the deposited data

Results flagged for a closer look

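The test of the difference of differences named 2 probe sets in which the difference between PBMLD and LD was not that between PBM and control. Ldb2, a LIM domain binding cofactor, had 8.25, 8.30 and 8.32 in PBMLD, 8.15, 8.15 and 8.20 in LD, 7.61, 7.53 and 7.27 in PBM and 8.57, 8.53 and 8.47 in control. The difference of differences was 1.18 (adjusted p = 0.0303). PBMLD differed from LD by 0.12 (adjusted p = 0.717) and PBM from control by -1.06 (adjusted p = 0.000605). The unnamed probe set 10782065 had 9.54, 9.26 and 9.46 in PBMLD, 10.03, 10.07 and 10.43 in LD, 9.72, 9.73 and 9.83 in PBM and 9.29, 9.17 and 9.05 in control, a difference of differences of -1.35 (adjusted p = 0.0418). Neither was called with cyclic loess, the replicate block or the lens or pigment epithelium covariates.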

How the results depend on the processing

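Against 63 called probe sets, the total number called was 35 when only the 6 compared arrays were fitted, 0 over probe sets with 1 symbol, 39 with the pigment epithelium covariate, 36 with both covariates, and 40 with identical probe sets kept once. The covariates and the single counting of identical probe sets were chosen after seeing the data. At any fold, 83 became 35, 0, 41, 41 and 49 in the same order, and 167 with array weights. The methods' t-test gave 124 (over 2-fold) and 1854 (any fold) at its unadjusted threshold and 0 and 0 after adjustment. Leaving out 1 array gave 42 to 146 called and 50 to 194 at any fold, highest without LD 1 (146 and 193) and without PBMLD 2 (132 and 194), and 50 without LD 3, 52 without PBMLD 1 and 53 without PBMLD 3.

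The 2 calls of the difference of differences became 0 with cyclic loess, the replicate block, the lens, the pigment epithelium or both covariates, 1 over probe sets with 1 symbol, and 0 to 7 with 1 array left out (7 without LD 1). The median of the raised light list was -0.53 to -0.21 with 1 array left out, that of the lowered list -1.39 to -0.89, against -1.15 in all arrays. No called result reversed. Of the 33 list medians, 15 changed sign under at least 1 alternative, and apart from the lens and pigment epithelium lists under the covariates made from them, all 15 were at most 0.17 in size. Examples are rod phototransduction (0.08, but -0.04 without LD 3 and -0.10 with the pigment epithelium covariate) and amacrine and horizontal genes (0.17, but -0.08 under both).

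PBMLD and LD share replicate numbers, and same-numbered arrays deviated together with r = 0.197, -0.003 and -0.038. Arrays of different number had r from -0.166 to 0.127. With deviations taken within groups of 3 arrays, these values cannot decide whether the numbers pair the arrays. A replicate block called 57 and 70 at any fold, and under it Npas4, Rpl39, Gpr15lg, Imp3, Tmem218 and Cd248 did not pass (adjusted p from 0.0506 to 0.0646), with 9 of the 15 genes still passing.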
